A study of Homo sapiens with 6 samples.

Results

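The genes described here are the class II genes of the human major histocompatibility complex (MHC) that had been picked out in these libraries, together with their invariant chain and their transcriptional coactivator: CD74, CIITA, HLA-DRA, HLA-DRB1, HLA-DPA1, HLA-DPB1, HLA-DMA and HLA-DMB. Each was found as the 1 row of the expression table whose Ensembl ID carries that symbol in GENCODE release 29. They are 8 of the 58735 gene IDs in the table and 8 of the 15638 genes that had a mean of at least 1 FPKM in at least 1 cell line. FPKM is a fragment number scaled to library size and to the length of all annotated exons, so comparisons between genes depend on the lengths used. All 8 passed that filter through their mean in H660, and 1 of them, HLA-DMA, also through its mean in C4-2B MDVR. The members were chosen by their FPKM levels in the lines and their knockdown changes, so all 6 columns of the table had a part in the choice. The members' values are therefore given as a description, with no test.

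PLXND1, the gene of the semaphorin receptor Plexin D1, had been silenced in 2 human prostate cancer lines, and messenger RNA was sequenced as 6 libraries. H660 is a line from a neuroendocrine prostate cancer, and C4-2B MDVR is a C4-2B derivative that resists the androgen receptor inhibitor enzalutamide. The H660 libraries came from cells given PLXND1 siRNA 1, cells given PLXND1 siRNA 2 and cells given a control siRNA, and the C4-2B MDVR libraries from the same 3 treatments. All 6 libraries thus come from cells given an siRNA, each treatment has 1 library per line, and separate cultures are not mentioned in the labels.

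MHC class II molecules are pairs of an alpha and a beta chain that carry peptides from endosomes to the cell surface, where CD4+ T cells read them. CD74 is the invariant chain that escorts the pair and fills its groove until proteases cut it down, and HLA-DM then takes out the last fragment so that a peptide can bind. The genes are normally active in B cells, dendritic cells and macrophages, and other cells switch them on under interferon gamma through CIITA, a coactivator that binds no DNA itself but docks on RFX, NF-Y and CREB proteins at the X and Y boxes of class II promoters.

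HLA-DRA, on the plus strand at chr6:32439842-32445046 of GRCh38 as GENCODE 29 places it, encodes the alpha chain of HLA-DR. HLA-DRB1, the beta chain of HLA-DR, lies on the minus strand at chr6:32578769-32589848. HLA-DMB and HLA-DMA, the beta and alpha chains of the peptide exchanger, are on the minus strand at chr6:32934629-32941070 and chr6:32948613-32969094. HLA-DPA1 on the minus strand at chr6:33064569-33080775 and HLA-DPB1 on the plus strand at chr6:33075926-33087201 are the HLA-DP chains, and they start head to head. CD74 lies outside the complex, on the minus strand at chr5:150401637-150412929, and CIITA on the plus strand at chr16:10866222-10943021.

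The sequences through which CIITA is known to reach these genes are the boxes before their starts, and the windows below show where their letters lie. The letters AGNNACNGA were searched for the X box and ATTGG for the Y box, on both strands, in the RefSeq promoters of GRCh38.p14, which run from 250 bases before to 50 bases after a start. Of the 8 members, 6 had a promoter in that table. Each window is printed 5′ to 3′ on the strand of its gene, with the matched letters in capitals. CCAAT is ATTGG on the other strand. A window runs from 130 to 41 bases before the start, and it stops earlier where an annotated exon of the gene begins.
CD74, chr5:150412951-150413040, minus strand: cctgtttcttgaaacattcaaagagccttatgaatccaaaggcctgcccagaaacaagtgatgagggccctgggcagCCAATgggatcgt
HLA-DRB1, chr6:32589889-32589978, minus strand: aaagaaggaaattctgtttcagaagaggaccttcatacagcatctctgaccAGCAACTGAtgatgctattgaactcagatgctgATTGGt
HLA-DMB, chr6:32941071-32941158, minus strand: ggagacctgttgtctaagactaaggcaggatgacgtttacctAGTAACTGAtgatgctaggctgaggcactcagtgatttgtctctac
HLA-DMA, chr6:32953138-32953227, minus strand: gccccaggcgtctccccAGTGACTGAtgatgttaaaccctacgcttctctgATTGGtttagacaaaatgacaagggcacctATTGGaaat
HLA-DPB1, chr6:33075860-33075925, plus strand: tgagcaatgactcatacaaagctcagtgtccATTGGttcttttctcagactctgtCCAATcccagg

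HLA-DRB1 and HLA-DMA held X box letters followed on the same strand by Y box letters within 15 to 30 bases. In HLA-DRB1 the X box letters ran from 79 to 71 bases before the start and the Y box letters from 46 to 42 bases before it. In HLA-DMA they ran from 113 to 105 and from 79 to 75 bases before the start. Such a pair was found in 81 of 35116 promoters of the table (0.231%), whereas X box letters anywhere were in 15.3% and Y box letters in 34.6%. HLA-DMB had X box letters from 88 to 80 bases before its start and no Y box letters at that distance, and CD74 and HLA-DPB1 had Y box letters alone. For HLA-DPA1 the table holds 2 starts, of which the downstream one had X box letters from 99 to 91 bases before it and the upstream one neither motif. A match of letters is not a shown binding site, and a window without one says nothing of the factor. The same matches, by distance from the start, are drawn in the plot of box positions.

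**Figure D1:**
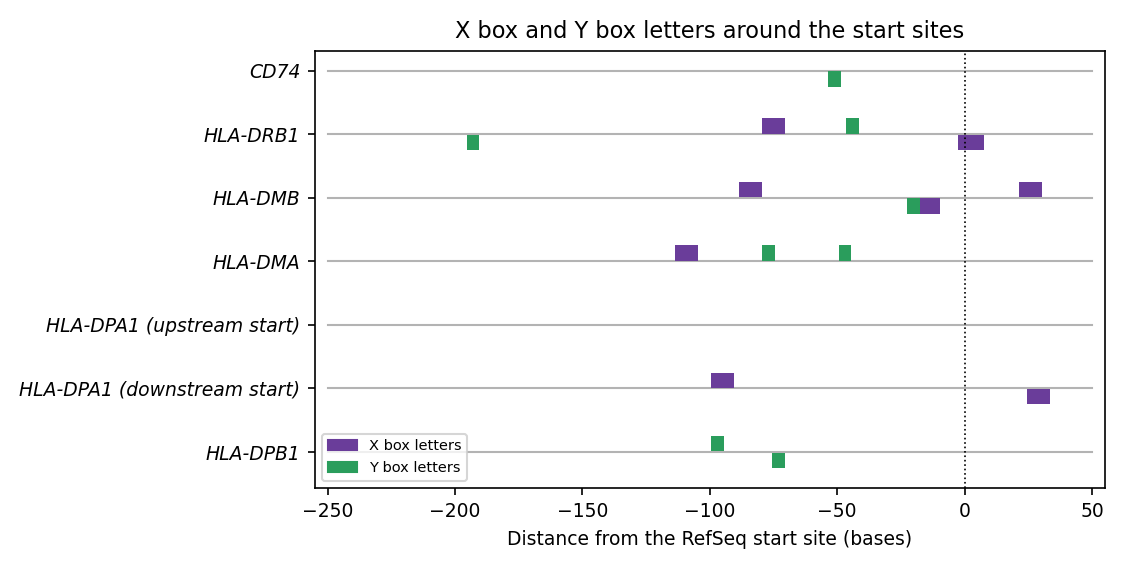
Positions of the X box letters (purple) and Y box letters (green) in the RefSeq promoters of 6 members, against the distance from the start site in bases; blocks above a line are on the strand of the gene and blocks below it on the other strand. HLA-DRB1 and HLA-DMA carry a block of each kind on the gene's own strand between 113 and 42 bases before the start.

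Before the values, some facts of the libraries bear on them. The libraries held 17655802 to 24105369 fragments in genes. Mitochondrial genes took 8.58% to 9.64% of them in H660, 6.83% and 7.44% in the C4-2B MDVR knockdowns and 3.38% in the C4-2B MDVR control; whether this has a part in the changes below was not tested. The lines matched their labels: the summed level of 7 neuroendocrine markers was 704 to 734 FPKM in H660 and 3.73 to 5.48 FPKM in C4-2B MDVR, and that of 6 luminal prostate markers was 0.365 to 0.463 FPKM in H660 and 579 to 1164 FPKM in C4-2B MDVR. PLXND1 had 7.62 FPKM with siRNA 1 and 7.54 with siRNA 2 in H660, against 9.13 in its control, and 1.57 and 3.10 in C4-2B MDVR, against 7.40 in its control. The silencing was thus slight in H660, where the knockdown libraries kept 0.835 and 0.826 of the control level, and larger in C4-2B MDVR, where they kept 0.212 and 0.418.

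CD74 and HLA-DRA were among the abundant messenger RNAs of H660 and close to the limit of detection in C4-2B MDVR. The invariant chain CD74 had 279 FPKM with siRNA 1, 311 with siRNA 2 and 270 with the control siRNA in H660, against 0.109, 0.0580 and 0.0303 FPKM in C4-2B MDVR. In fragments these are 20872, 25510 and 21268 in H660, and 7, 3 and 2 in C4-2B MDVR. No C4-2B MDVR library came near the H660 range, and CD74 ranked 51, 50 and 56 among 19951 protein-coding genes in the H660 libraries. Between the 2 control libraries the level was 8906 times as high in H660, with a 95% interval of 2465 to 73543; such intervals come from fragment numbers and cover counting error only. Over the 3 libraries of a line the mean was 287 ± 21.6 FPKM in H660 and 0.0658 ± 0.0400 FPKM in C4-2B MDVR (SD, n = 3 each, siRNAs pooled).

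HLA-DRA, the alpha chain that pairs with every HLA-DR beta chain, had 72.6, 87.9 and 77.5 FPKM in H660 with siRNA 1, siRNA 2 and the control siRNA. In C4-2B MDVR it had 0.427, 0.192 and 0.151 FPKM, from 11, 4 and 4 fragments. HLA-DRA stood at rank 390, 307 and 355 in the H660 libraries, and its control level was 514 times as high there (201 to 1889). Per kilobase it stayed below its escort, at 26.0%, 28.3% and 28.7% of the CD74 level in H660.

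The 2 chains of HLA-DM came next. HLA-DMA had 34.4, 34.2 and 30.9 FPKM in H660 and 2.80, 2.77 and 3.12 FPKM in C4-2B MDVR, in the order siRNA 1, siRNA 2 and control siRNA that is kept below. HLA-DMB had 16.3, 18.6 and 13.4 FPKM in H660 and 1.16, 0.476 and 0.881 FPKM in C4-2B MDVR. HLA-DMA was the member with the highest level in each C4-2B MDVR library, where 143, 114 and 164 fragments fell on it. The control levels in H660 were 9.90 times (8.43 to 11.7) those in C4-2B MDVR for HLA-DMA and 15.2 times (12.2 to 19.2) for HLA-DMB. In FPKM, HLA-DMA exceeded HLA-DMB in every library, by 2.11, 1.84 and 2.31 times in H660 and by 2.41, 5.82 and 3.54 times in C4-2B MDVR. These ratios depend on the exon lengths used, 2534 bases for HLA-DMA and 4655 for HLA-DMB. In H660 HLA-DMA had 2046, 2231 and 1938 fragments, and HLA-DMB had 1781, 2233 and 1544. A readthrough gene, AL645941.2, shares 174 exon bases with HLA-DMA and 438 with HLA-DMB on their own strand and had 0 to 0.417 FPKM, and BRD2 on the opposite strand shares 55 with HLA-DMA.

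The HLA-DP chains were an order lower than HLA-DRA in H660. HLA-DPB1 had 6.59, 6.95 and 5.79 FPKM in H660 and 0.907, 0.265 and 0.380 FPKM in C4-2B MDVR. HLA-DPA1 had 3.55, 4.12 and 3.19 FPKM in H660 and 0.466, 0.193 and 0.285 FPKM in C4-2B MDVR. The alpha chain stood at 0.538, 0.592 and 0.551 of the beta chain in H660 and at 0.514, 0.728 and 0.75 in C4-2B MDVR. These ratios depend on the exon lengths used, 5748 bases for HLA-DPA1 and 2791 for HLA-DPB1. The proportions of the pair thus overlapped between the lines, while its control level was higher in H660 by 11.2 times for HLA-DPA1 (7.89 to 16.3) and 15.2 times for HLA-DPB1 (9.92 to 24.6). The exons of these 2 genes share 96 bases on opposite strands, and since the strand used in counting is not given in the sources used here, fragments from that stretch cannot be assigned.

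By FPKM, CIITA itself was a gene of middling level in H660. It had 2.62, 3.12 and 3.52 FPKM in H660 and 0.0550, 0.116 and 0.0465 FPKM in C4-2B MDVR, from 1278, 1666 and 1807 fragments in H660 and 23, 39 and 20 in C4-2B MDVR. Its control level was 75.7 times as high in H660 (48.8 to 124). CIITA lay at rank 8461 to 9477 of 19951 in H660, far below CD74, which had 106, 99.8 and 76.7 times the CIITA level per kilobase in the H660 libraries. Per kilobase here means over all annotated exons, 20757 bases for CIITA and 3184 for CD74. DEXI, on the opposite strand, shares 2416 of the exon bases of CIITA (11.6%) and had 0.541, 0.569 and 0.900 FPKM in H660 and 0.379, 1.01 and 0.953 FPKM in C4-2B MDVR, so some CIITA fragments may be its own.

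HLA-DRB1 had the lowest control level of the 8 in H660. It had 3.25, 2.37 and 1.45 FPKM there, from 94, 75 and 44 fragments, and in C4-2B MDVR it had 0.121 FPKM from 3 fragments with siRNA 1 and was at 0 with siRNA 2 and with the control siRNA. With 3 fragments as the floor, a count of 0 allows up to 0.150 FPKM with siRNA 2 and 0.118 FPKM in the control, so by that floor the control level was at least 12.3-fold higher in H660; the lower 95% limit of the ratio, which also counts the error of the H660 fragments, was 9.58. The beta chain reached only 4.48%, 2.69% and 1.87% of the HLA-DRA level in H660. The near-identical HLA-DRB5, another beta chain for HLA-DRA, had 0.304, 0.862 and 0.962 FPKM in H660, and the 2 genes together came to 4.90%, 3.68% and 3.11% of HLA-DRA. HLA-DRB genes differ between people and share long stretches with one another, and how the authors' counting treated reads that fit several copies or differ from the reference allele is not given in the sources used here, so these HLA-DRB levels are uncertain.

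All 8 members had higher values in every H660 library than in any C4-2B MDVR library, an order that 37.1% of the 15638 genes tested also showed, with 37.4% in the opposite order. Since the list was chosen with it in view, nothing is read from that count. In H660 the FPKM levels ran from CD74 over HLA-DRA, HLA-DMA, HLA-DMB and HLA-DPB1 down to HLA-DPA1, CIITA and HLA-DRB1. The exon lengths used have a part in this order. The values of neighbours down to HLA-DPB1 and HLA-DPA1 did not overlap between genes within H660, while HLA-DPA1, CIITA and HLA-DRB1 overlapped: 3.19 to 4.12 FPKM for HLA-DPA1, 2.62 to 3.52 for CIITA and 1.45 to 3.25 for HLA-DRB1. In C4-2B MDVR the order was another, with HLA-DMA first and CD74, CIITA and HLA-DRB1 at the end. In libraries made from many cells, fewer cells with class II RNA and less of it per cell cannot be told apart.

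**Figure D2:**
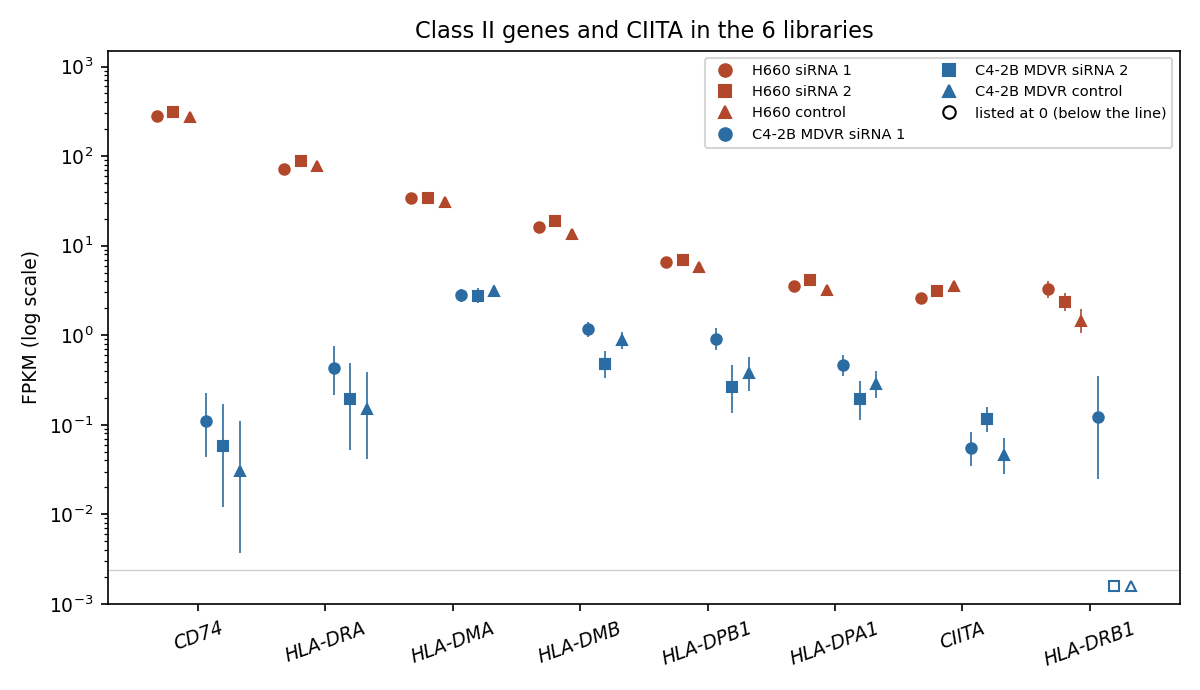
FPKM of the 8 members in each library on a log scale, in H660 (red) and C4-2B MDVR (blue), with circles for siRNA 1, squares for siRNA 2, triangles for the control siRNA and bars for the 95% Poisson interval of the fragment number. H660 points lie above all C4-2B MDVR points for each member, and the open marks below the grey line are the 2 libraries with HLA-DRB1 at 0.

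The levels were set beside markers of cells that normally carry class II. PTPRC, the pan-leukocyte CD45, was at 0.0232 FPKM in the H660 siRNA 1 library and at 0 in the other 5. MS4A1, CD3D, CD3E, CD2 and C1QA, markers of B cells, T cells and macrophages, were at 0 in all 6 libraries. The 5 B cell markers summed to 9.67, 8.87 and 10.9 FPKM in H660 and 0.149, 0.0772 and 0.0439 FPKM in C4-2B MDVR, and nearly all of the H660 sum was PAX5, a transcription factor of B cells and of parts of the nervous system, with 9.67, 8.77 and 10.8 FPKM. The 10 markers of macrophages and dendritic cells summed to 2.06 to 2.78 FPKM in H660 and 0.719 to 1.14 FPKM in C4-2B MDVR, and 1 of them, CD14, passed 1 FPKM in H660, at 2.19, 2.33 and 1.80 FPKM. The 4 markers of T and NK cells summed to 0 to 0.182 FPKM in H660 and 0.263 to 0.722 FPKM in C4-2B MDVR.

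Alveolar type 2 cells of the lung are an epithelium that carries class II at rest. Their 8 markers summed to 421, 446 and 527 FPKM in H660 and 0.418, 0.494 and 0.329 FPKM in C4-2B MDVR. Of these, 4 reached 1 FPKM in H660 (SFTPB, NKX2-1, LAMP3 and SLC34A2), whereas SFTPC, the marker that defines the cell, was at 0 there. What these levels have to do with class II was not tested.

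Nearest to CD74 in pattern, among 12326 protein-coding genes and by the Euclidean distance of log2(FPKM + 1) over the 6 libraries after each gene was centred on its mean, were CEACAM6 at 0.409, PLAU at 0.899, WFDC2 at 1.07, NKX2-1 at 1.15 and CEACAM5 at 1.30. CEACAM6, a surface glycoprotein of epithelia, had 309, 282 and 335 FPKM in H660 and was at 0 in C4-2B MDVR. HLA-DRA lay at 2.55 from CD74 and the other 6 members at 5.96 to 7.88. Nearest to HLA-DRA were SMOC1 at 0.245, HOXB2 at 0.279, TUBB2B at 0.302, ID1 at 0.310 and CNN3 at 0.367. The 6 libraries fall into 2 lines, so such likeness mostly reflects the gap between the lines.

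Among the other 7 class II genes, HLA-DQB2 rose in H660: it had 1.64, 1.95 and 1.77 FPKM there and was at 0 in the 3 C4-2B MDVR libraries, at least 18.0-fold higher by the floor of 3 fragments. By limma with Benjamini-Hochberg adjustment over all genes tested, its H660 minus C4-2B MDVR difference in log2(FPKM + 1) was 1.48 ± 0.12 (SE, adjusted p = 0.000128). HLA-DQB2 was the 1 tested gene of these 7, and it entered the test through its H660 mean, the group where it is high. This list and those below were also chosen with earlier results of these data known, so their adjusted p-values are not independent of that choice. The line test called a gene at an adjusted p under 0.05 and at least 2-fold in FPKM + 1, which took in 38.0% of the genes tested, 20.1% higher and 17.9% lower in H660. That split depends on scaling: 3143 of the 5946 calls were higher in H660 as deposited, against 3854 of 5959 once short RNAs and mitochondrial genes were left out and the libraries rescaled, which moved the median of all genes by about 0.26. HLA-DQB1, the beta chain of HLA-DQ, did not reach the filter and had 0.833, 0.784 and 0.717 FPKM in H660 and 1.05, 0.653 and 0.472 FPKM in C4-2B MDVR, overlapping between the lines. Its alpha chain HLA-DQA1 had 0 to 2 fragments in any library. HLA-DRB5, HLA-DQA2, HLA-DOA and HLA-DOB stayed under 1 FPKM in all 6.

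Of the 8 factors that dock at class II promoters, none was called in either direction, beside 38.0% of all genes tested. RFX5, the DNA-binding subunit of RFX, had 35.5, 33.3 and 35.0 FPKM in H660 and 25.2, 33.6 and 26.2 FPKM in C4-2B MDVR, where the groups overlap. NFYA, the subunit of NF-Y that reads CCAAT, had 17.8, 17.9 and 21.4 FPKM in H660 and 8.43, 10.1 and 9.50 FPKM in C4-2B MDVR. Its difference of 0.95 on the log2(FPKM + 1) scale (limma adjusted p = 0.000588) stayed just short of 2-fold on that scale. It passed 2-fold under 5 of the alternatives run. In mean FPKM, NFYA was 2.04 times as high in H660. NFYB, another NF-Y subunit, had 9.38 ± 1.75 FPKM in H660 and 5.02 ± 0.389 FPKM in C4-2B MDVR (SD, n = 3 each; log2 difference 0.77, limma adjusted p = 0.00334), also short of 2-fold. ATF1, a relative of CREB1, had 4.46 ± 0.461 FPKM in H660 and 9.11 ± 0.796 FPKM in C4-2B MDVR (SD, n = 3 each). Its log2(FPKM + 1) difference of −0.89 (limma adjusted p = 0.00105) was short of 2-fold on that scale, in the opposite direction. In mean FPKM, ATF1 in H660 was at 0.490 of the C4-2B MDVR level. As a description of the members, their fitted line differences on the log2(FPKM + 1) scale ran from 1.66 ± 0.18 for HLA-DRB1 to 8.07 ± 0.10 for CD74 (SE).

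The route by which interferon gamma switches on CIITA runs over its receptor, the kinases JAK1 and JAK2 and the transcription factor IRF1. Of 8 tested genes of the 9 reported from this list, 3 rose and 1 fell in H660. Among all genes tested 20.1% were called higher and 17.9% lower. JAK1 had 10.6, 9.73 and 12.3 FPKM in H660 and 0.967, 0.994 and 1.27 FPKM in C4-2B MDVR (log2 difference 2.51, limma adjusted p = 9.13e-06). IRF1, which acts at the CIITA promoter, had 10.4, 11.0 and 9.55 FPKM in H660 and 0.669, 1.89 and 0.223 FPKM in C4-2B MDVR (log2 difference 2.65, limma adjusted p = 0.000204). It entered the test through its H660 mean alone, the line where it is high. Its relative IRF2 was also higher in H660, at 13.7 ± 0.343 FPKM, and had 5.11 ± 0.869 FPKM in C4-2B MDVR (SD, n = 3 each; log2 difference 1.28, limma adjusted p = 0.000203).

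JAK2 was the gene that fell, with 0.807, 0.572 and 0.602 FPKM in H660 and 2.44, 3.48 and 2.60 FPKM in C4-2B MDVR (log2 difference −1.20, limma adjusted p = 0.000632). It entered the test through its C4-2B MDVR mean alone, the line where it is high. The ligand IFNG was at 0 in all 6 libraries.

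Of 6 tested genes of 7 for endosomal processing of CD74 and antigen, 1 rose and 2 fell in H660, beside 20.1% and 17.9% of all genes tested. CTSS, cathepsin S, which makes the late cuts in the invariant chain in antigen-presenting cells, had 33.3, 31.5 and 28.0 FPKM in H660 and 0.0235, 0.0874 and 0.103 FPKM in C4-2B MDVR (log2 difference 4.90, limma adjusted p = 1.58e-06). CTSL, cathepsin L, which does that work in the thymic epithelium of mice, was at 0 in the 3 H660 libraries and had 32.1, 24.8 and 33.2 FPKM in C4-2B MDVR, so it was at least 460.1-fold lower in H660 (limma adjusted p = 2.53e-06). CTSS entered the test through its H660 mean alone and CTSL through its C4-2B MDVR mean alone, each the line where the gene is high.

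CTSB, the broad protease cathepsin B, fell to 9.22 ± 0.682 FPKM in H660, against 31.6 ± 6.49 FPKM in C4-2B MDVR (SD, n = 3 each; log2 difference −1.66, limma adjusted p = 0.000272). CTSD, LGMN and SPPL2A were not called, and IFI30, the reductase of antigen processing, had 0 to 0.394 FPKM over the 6 libraries. In H660 the CTSS level stood close to that of HLA-DMA.

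Of 4 tested genes of 6 for turnover and repression of class II, among them the ubiquitin ligase MARCH8 and the polycomb methylase EZH2, none was called. Among all genes tested 38.0% were called. EZH2 had 19.1, 20.7 and 20.5 FPKM in H660 and 12.3, 13.9 and 15.4 FPKM in C4-2B MDVR. Among 5 surface partners of T cells, CD86 was at 0 in all 6 libraries, and CD80 and CD40, the other costimulators, stayed under 1 FPKM. ICAM1, an adhesion molecule, had 11.6, 14.3 and 14.1 FPKM in H660 and 3.14, 4.14 and 3.03 FPKM in C4-2B MDVR (log2 difference 1.70, limma adjusted p = 0.000155). CD274, the inhibitory ligand PD-L1, had 1.83, 1.95 and 2.10 FPKM in H660 and 0.375, 0.0749 and 0.294 FPKM in C4-2B MDVR (log2 difference 1.25, limma adjusted p = 0.000442), and it was no longer called after quantile normalization (0.90). ICAM1 and CD274 were the 2 tested genes of that list, and CD274 entered the test through its H660 mean alone, the line where it is high.

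**Figure D3:**
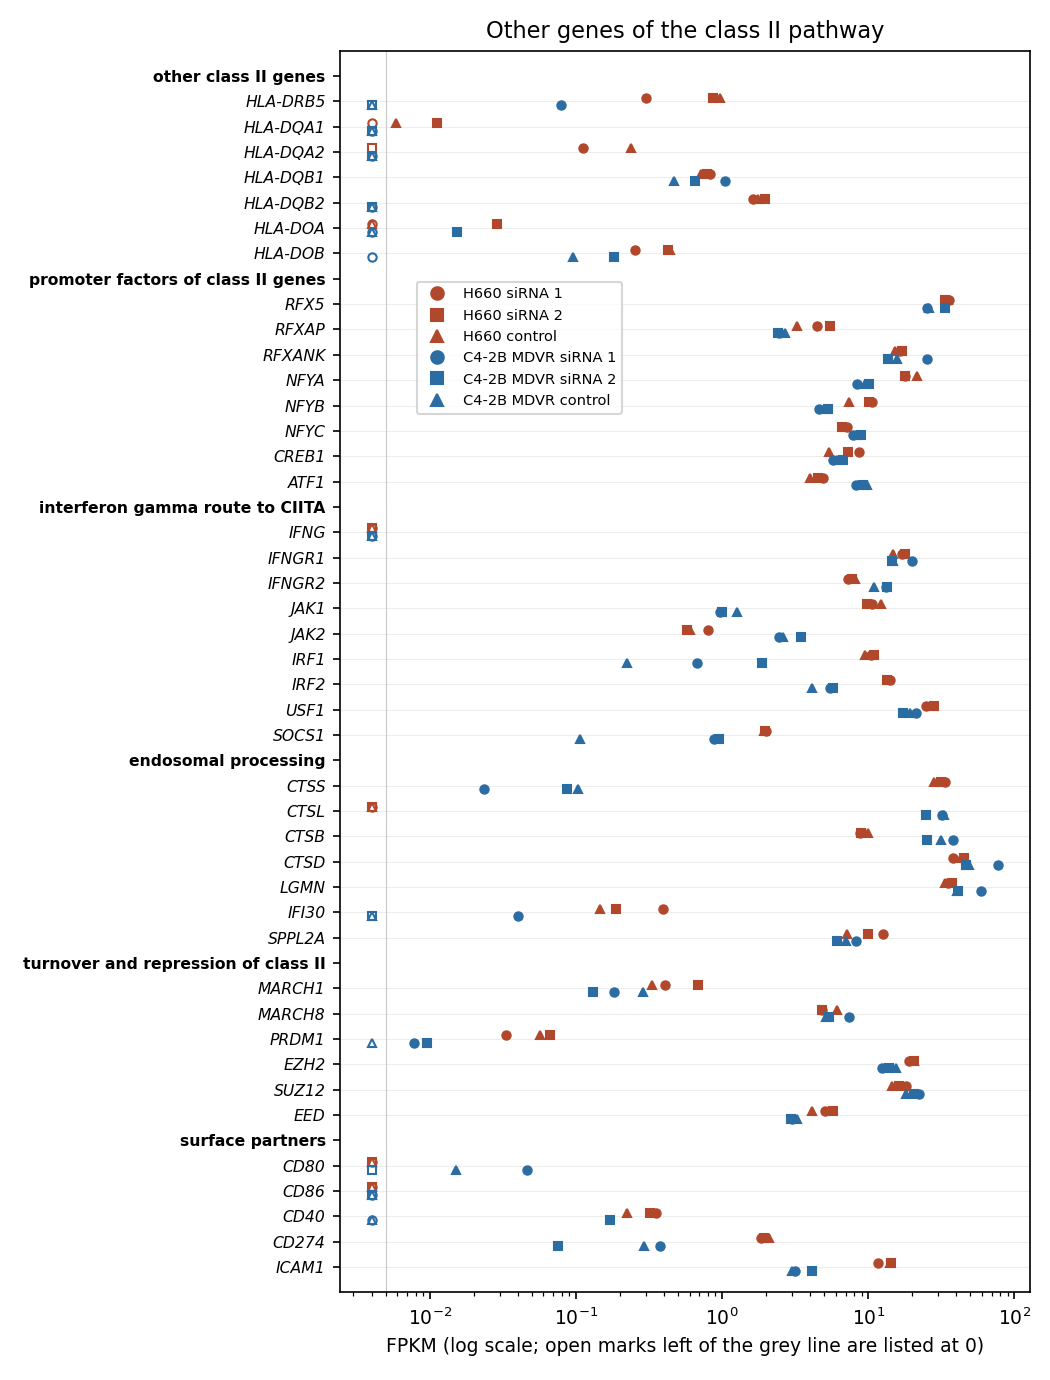
FPKM on a log scale of the other class II genes and of 5 lists around them in the 6 libraries, in H660 (red) and C4-2B MDVR (blue), with circles for siRNA 1, squares for siRNA 2, triangles for the control siRNA and open marks left of the grey line for values of 0. JAK1, IRF1, CTSS and HLA-DQB2 lie to the right in H660, and CTSL and JAK2 to the left.

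Within H660, the ratios of the members to the control ran from 0.745 to 2.25 in the PLXND1 siRNA libraries, and CIITA lay below the control with both siRNAs. CIITA stood at 0.745 of the control level with siRNA 1 (0.693 to 0.801) and at 0.886 with siRNA 2 (0.828 to 0.947). In contrast 6 members were above the control with both siRNAs: CD74, HLA-DRB1, HLA-DPA1, HLA-DPB1, HLA-DMA and HLA-DMB. Both knockdown libraries were above the control for 32.1% of the genes tested and below it for 38.3%, and since the rule used these values nothing is read from the members' count.

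For CD74 the ratio to the control was 1.03 with siRNA 1 (1.01 to 1.05) and 1.15 with siRNA 2 (1.13 to 1.17). HLA-DRA lay on both sides, at 0.937 (0.884 to 0.993) and 1.13 (1.07 to 1.20). HLA-DMB was at 1.22 (1.13 to 1.30) and 1.39 (1.30 to 1.48), and HLA-DMA at 1.11 with each siRNA. These are small ratios with narrow counting intervals, and with 1 control library the spread between cultures behind them is unknown.

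HLA-DPA1 was at 1.11 and 1.29 of the control and HLA-DPB1 at 1.14 and 1.20. HLA-DRB1 had the highest ratios, 2.25 with siRNA 1 (1.56 to 3.30) and 1.64 with siRNA 2 (1.11 to 2.43). On the log2(FPKM + 1) scale the median change of the 8 members was 0.13 with siRNA 1 and 0.22 with siRNA 2, against −0.02 and 0.00 for all genes tested.

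The HLA-DRB1 ratio went with a shift between the copies. HLA-DRB1 took 91.3% of the fragments on HLA-DRB1 and HLA-DRB5 with siRNA 1 (exact binomial interval 84.1% to 95.9%) and 72.8% with siRNA 2 (63.2% to 81.1%), against 59.5% in the control (47.4% to 70.7%). The 2 genes together had 103, 103 and 74 fragments. In FPKM, HLA-DRB5 stood at 0.304 with siRNA 1 and 0.862 with siRNA 2, against 0.962 in the control. With siRNA 1 it ran opposite to HLA-DRB1, at 0.316 of the control (0.132 to 0.683). With siRNA 2 it was at 0.897 of the control (0.516 to 1.55), an interval that spans 1. The summed level of HLA-DRB1 and HLA-DRB5 was 3.56 and 3.23 FPKM, against 2.41 in the control. The neighbouring pseudogene HLA-DRB6 had 1.12 and 0.263 FPKM, against 0.213 in the control. Whether reads moved between the copies in counting was not tested.

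**Figure D4:**
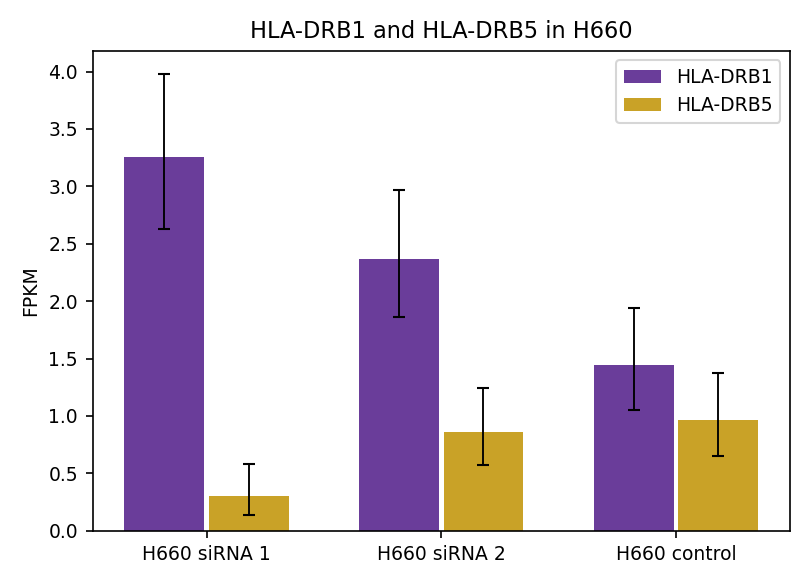
HLA-DRB1 and HLA-DRB5 in the 3 H660 libraries, in FPKM, with bars from 0 and the 95% Poisson interval of the fragment number as the error bar. HLA-DRB1 (purple) is highest with siRNA 1 (3.25) and lowest in the control (1.45), and HLA-DRB5 (yellow) runs the other way, with 0.304 for siRNA 1 and 0.962 for the control.

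In C4-2B MDVR the class II genes were low, and the siRNAs lay on opposite sides of the control for HLA-DPB1, HLA-DPA1 and HLA-DMB. HLA-DPB1 was at 2.39 of the control with siRNA 1 (1.42 to 4.13) and at 0.696 with siRNA 2 (0.314 to 1.47). HLA-DPA1 was at 1.64 (1.05 to 2.59) and 0.676 (0.359 to 1.23), and HLA-DMB at 1.32 (0.985 to 1.77) and 0.541 (0.356 to 0.807). For each of the 3 genes 1 of the 2 intervals spans 1 as deposited. The deposited scaling implies library totals of 0.926 and 0.920 times the fragments in genes with the siRNAs and 1.01 times in the control. Ratios to the control in this line carry that offset, which the intervals leave out, so the HLA-DPA1 limit of 1.05 depends on the scaling. HLA-DMA, the best covered member there, was at 0.898 (0.712 to 1.13) and 0.887 (0.692 to 1.13), with both intervals spanning 1.

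CIITA was higher with siRNA 2 than with siRNA 1, unlike these 3 genes, at 1.18 with siRNA 1 (0.622 to 2.27) and 2.49 with siRNA 2 (1.42 to 4.50). IRF1 had the same order of libraries as CIITA. It was at 3.003 times the control with siRNA 1 (2.04 to 4.52) and 8.47 times with siRNA 2 (5.95 to 12.4). SOCS1, the feedback inhibitor of JAK kinases, had 0.885, 0.960 and 0.107 FPKM, the control value from 4 fragments. Its ratios were 8.24 (2.92 to 32.1) and 8.94 (3.13 to 35.1). Neither IRF1 nor SOCS1 passed the knockdown test, with log2(FPKM + 1) changes of 0.84 and 0.80 (limma adjusted p = 0.870 and 0.633). At such low levels the added 1 makes these changes smaller than the ratios. Both siRNAs were above the control for CD74, CIITA and HLA-DRA and below it for HLA-DMA, with 32.0% and 25.8% of the genes tested on those sides. Nothing is read from the members' counts here either, and CD74 and HLA-DRA rest on 2 to 11 fragments per library.

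Set against each other in C4-2B MDVR, siRNA 1 gave 3.43 times the siRNA 2 level of HLA-DPB1 (1.80 to 7.06), 2.44 times that of HLA-DMB (1.66 to 3.67), 2.42 times that of HLA-DPA1 (1.40 to 4.38) and 2.22 times that of HLA-DRA (0.657 to 9.55, from 11 and 4 fragments). For CIITA the siRNA 1 level was 0.476 of the siRNA 2 level (0.271 to 0.816), for CD74 1.88 times (0.430 to 11.3) and for HLA-DMA 1.01 times (0.785 to 1.31). A ratio of at least 2 with siRNA 2 above 0 was seen in 4 members and in 6.06% of the genes tested, and since these columns had a part in the choice, nothing is read from it. The summed level of the 6 luminal markers also differed between these libraries, at 1164 FPKM with siRNA 1 and 579 FPKM with siRNA 2, and whether this has a part in the gap was not tested. The median log2(FPKM + 1) change of the members was 0.18 with siRNA 1 and −0.05 with siRNA 2, against 0.01 for all genes with each.

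**Figure D5:**
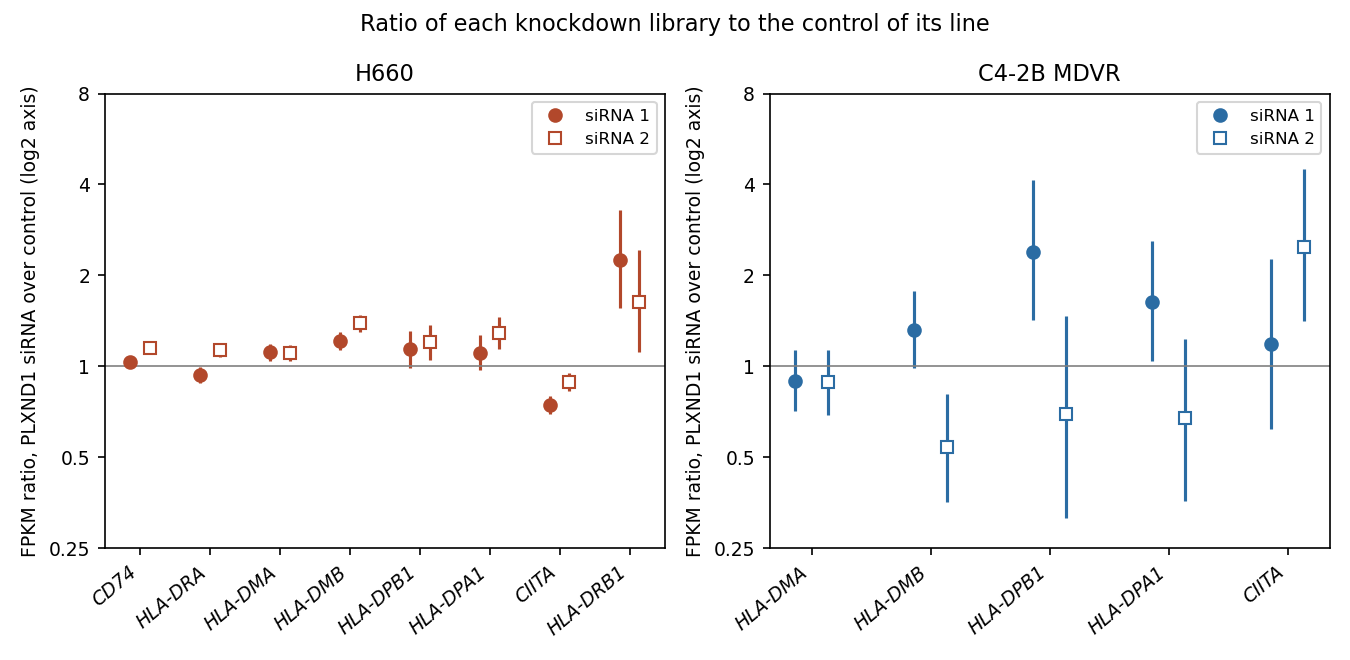
Ratio of each PLXND1 siRNA library to the control of its line on a log2 axis, with siRNA 1 as filled circles, siRNA 2 as open squares and 95% exact binomial intervals from the fragment numbers. In H660 the ratios lie between 0.745 and 2.25, with CIITA alone below 1 for both siRNAs; in C4-2B MDVR, where members with few fragments are left out, the siRNAs lie on opposite sides of 1 for HLA-DMB, HLA-DPB1 and HLA-DPA1.

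Across all genes, limma with Benjamini-Hochberg adjustment called none for the knockdown in H660 (647 at an unadjusted p under 0.05, lowest adjusted p = 0.0772), none in C4-2B MDVR (921, lowest adjusted p = 0.0901) and none for the difference between the lines (701, lowest adjusted p = 0.278), which is 0.0% of the genes tested in each case. Voom on recovered fragments also called none in these 3 comparisons. No gene of the lists around class II was called for the knockdown, and the lowest adjusted p among them was 0.633, for SOCS1 in C4-2B MDVR. With 1 control per line the spread comes from the 2 siRNA pairs alone, which also holds any difference in effect between the siRNAs.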

How the data were processed

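Messenger RNA from 2 prostate cancer cell lines was sequenced in read pairs of 150 bases each, per the labels' protocols. The deposited FPKM table was made by the authors with HISAT and Cufflinks, per the submitters' processing notes, which name the build hg18 and no versions. GENCODE release 29 (GRCh38) holds all 58735 gene IDs and gave symbols, exon lengths and coordinates; which build the reads were aligned to is uncertain. FPKM times exon length gave whole multiples of 1 step per library, within 0.05 fragments, in 100% of the genes of at most 100 fragments, and fragment numbers were recovered from it. Each 95% interval is exact Poisson for a level and exact binomial for a ratio or share; a floor is 3 fragments. The libraries were grouped by line and siRNA as labelled.

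The test was limma 3.58.1 under R 4.3.3 on log2(FPKM + 1) (intensity trend, two-sided, Benjamini-Hochberg threshold 0.05) for 15638 genes whose mean FPKM reached 1 in either line, by an additive fit of line and treatment (line difference, also at least 2-fold) or by 4 groups, which leaves 2 residual degrees of freedom (knockdown). The script was tested on simulated data. P-values measure only the spread between these libraries. Other summaries used Python 3.11.15. The text names all members and all genes of the lists around class II that changed or that a sentence needs, and the 5 genes nearest to CD74 and to HLA-DRA. One further gene of these lists is not reported here. The members and lists, and the motif letters, were chosen with earlier results of these data known. Alternatives changed the pseudocount, the filter, the scaling, the test, the libraries and the replicate block.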

Additional observations from a re-analysis of the deposited data

Results flagged for a closer look

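CIITA lay on opposite sides of the control in the lines: its mean log2(FPKM + 1) change over both siRNAs was 0.05 ± 0.17 in C4-2B MDVR and −0.23 ± 0.17 in H660 (SE), with both siRNA libraries of a line on the same side. The difference, C4-2B MDVR minus H660, was 0.28 ± 0.25 (SE). HLA-DMA went the other way, with −0.12 in C4-2B MDVR, 0.15 in H660 and a difference of −0.27 ± 0.20. As chosen members, these 2 were given no test of the difference.

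Opposite sides were also seen in 6 genes of the lists, and in 19.7% of the 15638 genes tested. The differences were −0.58 for RFXAP, −0.36 for ATF1, 0.36 for IFNGR2, −0.27 for CTSS, 0.53 for MARCH8 and −0.42 for EED. None of these 6 passed limma's interaction test (adjusted p = 0.985 for each). CTSS had 2 and 6 fragments with the siRNAs in C4-2B MDVR, against 9 in its control.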

How the results depend on the processing

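The line difference was called for 5946 genes. It was called for 3796 at a mean FPKM of at least 5, for 5839 to 7506 under the other changes of pseudocount, filter, scaling and test, and for 5851 to 6028 with 1 library left out. All 8 members stayed higher in H660 under every alternative in which they were tested, with CD74 between 8.02 and 12.03 on the log2 scale. The knockdown in C4-2B MDVR was called for 851 genes with no filter, for 3 at a mean FPKM of at least 5 (IFIT1, OASL and IFIT2) and for 2 after rescaling (IFIT1 and OASL), against 0. The knockdown in H660 was called for 876 with no filter, for 2 at a mean FPKM of at least 5 (MT-TR and MIR5587) and for 1 with a pseudocount of 0.1 or with quantile normalization (MT-TR), against 0. These few genes were named after their values were seen. The difference of the effect was called for 1372 with no filter, against 0. Of the calls with no filter, 861 in H660, 832 in C4-2B MDVR and 1352 for the difference were genes outside the filter, and no member was among them. Leaving out 1 knockdown library gave 0 calls in these 3 comparisons. The CIITA change in H660 stayed between −0.32 and −0.13, whereas in C4-2B MDVR it ran from −0.01 to 0.71, with another sign in 1 of 10 alternatives. The HLA-DRA change in H660, from −0.09 to 0.18, turned its sign in 1 of 11. Among the list genes, the line differences of NFYA, NFYB, ATF1 and SOCS1 reached 2-fold under some alternatives. No list gene called for the line difference changed its sign. Sign changes of list genes that were not called were not counted.

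The labels number the PLXND1 siRNAs alike in both lines. The correlation of siRNA 1 minus siRNA 2 between the lines was −0.0043 across genes. This cannot decide whether the numbers match, since PLXND1 kept 0.835 and 0.826 of its control level in H660. The replicate block gave 5993 calls for the line difference and 0 for each knockdown comparison. Depth limits CD74, HLA-DRA and HLA-DRB1 in C4-2B MDVR, where they have 0 to 11 fragments per library.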
